A study of Mus musculus with 10 samples.

Results

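This report describes 6 genes of androgen action in mouse testis, *Rhox5*, *Eppin*, *Drd4*, *Shbg*, *Srd5a1* and *Srd5a2*, which were picked by name, with earlier results of these data known. They were looked up by symbol among the 17816 genes listed for Sertoli cells at day 7 after birth and the 20007 genes listed for adult testis, and all 6 were found in both. RNA-seq values of 10 samples were used. The day 7 samples, 2 controls and 2 knockouts, were Sertoli cells, the supporting cells of the seminiferous tubule. The controls were *Rnf20* Flox/Flox mice, with labels that read WT, and the knockouts were *Amh-Rnf20*-/- mice. In the knockouts, Cre under the *Amh* promoter, active in Sertoli cells, removes the floxed part of *Rnf20*, an E3 ligase for histone H2B. These cells had adhered to plastic and been passaged several times, and their labels also carry a growth protocol for adult tissue. Values of 2 samples in each day 7 group were at hand, fewer than the individuals named in the study's methods. The adult samples were whole testis, 3 labelled WT and 3 labelled as the conditional knockout, and their labels name neither the driver of Cre nor an exact age. Those methods speak of individuals at day 7 without tying them to these samples, and whether the adult samples came from separate animals is not given in the sources used here, so p-values measure the spread between these samples, which may be technical.

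Androgen is made by Leydig cells, outside the tubules, and acts on Sertoli cells through a nuclear receptor that binds DNA and turns target genes on or off. Germ cells need this signal from Sertoli cells to pass through meiosis and to form spermatids. *Rhox5*, a homeobox gene on the X chromosome, is a classical androgen target of Sertoli cells, and *Eppin*, a protease inhibitor of testis and epididymis, and *Drd4*, a dopamine receptor, are also known as androgen-responsive there. *Shbg* encodes the androgen-binding protein that Sertoli cells secrete into the tubule, and *Srd5a1* and *Srd5a2* encode the reductases that turn testosterone into the stronger androgen dihydrotestosterone.

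The androgen receptor binds DNA as a pair, each partner on a half-site close to TGTTCT. RefSeq windows on GRCm38.p6, from 250 bases before to 50 bases after a start site, were found for all 6 genes. For *Rhox5*, *Eppin* and *Srd5a2* this site is the 5′ end of the gene coordinates given below. For *Shbg*, *Drd4* and *Srd5a1* it lies inside those coordinates. The windows were searched on both strands for TGTTCT, which reads AGAACA on the other strand, and for the inverted repeat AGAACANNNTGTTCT, which contains it. TGTTCT or its complement was present once each in the windows of *Rhox5*, *Shbg* and *Eppin*, and was not found in those of *Drd4*, *Srd5a1* and *Srd5a2*. Of all 32851 windows of this length, 6233 (19%) held it. The repeat was in 3 of all windows (0.00913%) and in none of the 6. The windows with a match are shown 5′ to 3′ on the gene's own strand, with the match in capitals, and that of *Srd5a1* is shown because it is the other gene that passed the test below. They lie at chrX:37754358-37754657 (plus strand) for *Rhox5*, chr11:69617856-69618155 (minus strand) for *Shbg*, chr2:164593522-164593821 (minus strand) for *Eppin* and chr13:69611414-69611713 (minus strand) for *Srd5a1*.
Rhox5: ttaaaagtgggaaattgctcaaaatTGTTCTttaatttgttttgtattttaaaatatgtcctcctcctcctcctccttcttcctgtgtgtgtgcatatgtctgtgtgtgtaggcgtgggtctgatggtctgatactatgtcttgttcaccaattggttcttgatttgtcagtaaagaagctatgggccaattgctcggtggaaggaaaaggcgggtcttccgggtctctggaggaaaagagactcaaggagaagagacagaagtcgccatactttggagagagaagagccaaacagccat
Shbg: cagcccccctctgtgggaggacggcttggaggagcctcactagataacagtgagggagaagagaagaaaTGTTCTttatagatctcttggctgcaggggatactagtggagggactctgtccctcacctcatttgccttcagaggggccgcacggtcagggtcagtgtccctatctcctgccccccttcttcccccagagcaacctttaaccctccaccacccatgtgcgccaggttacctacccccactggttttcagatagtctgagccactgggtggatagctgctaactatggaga
Eppin: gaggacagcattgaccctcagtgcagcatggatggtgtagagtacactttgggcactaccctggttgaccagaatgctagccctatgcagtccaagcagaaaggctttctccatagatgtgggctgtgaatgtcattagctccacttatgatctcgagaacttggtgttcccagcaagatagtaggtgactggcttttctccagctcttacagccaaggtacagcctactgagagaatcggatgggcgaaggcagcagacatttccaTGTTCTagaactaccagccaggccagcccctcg
Srd5a1: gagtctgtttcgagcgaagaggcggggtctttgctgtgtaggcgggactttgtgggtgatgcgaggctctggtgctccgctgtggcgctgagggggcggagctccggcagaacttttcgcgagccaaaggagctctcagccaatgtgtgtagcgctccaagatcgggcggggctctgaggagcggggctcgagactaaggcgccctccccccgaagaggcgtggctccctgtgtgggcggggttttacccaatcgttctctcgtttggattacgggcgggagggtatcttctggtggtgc
Counted from the start site of its window, the match began 225 bases before it in *Rhox5*, 181 bases before it in *Shbg* and 17 bases after it in *Eppin*. For *Shbg* that site is not the 5′ end of the gene coordinates. A match describes these letters and is not a binding site. For *Rhox5* the RefSeq start lies 50234 bases upstream of the start that GENCODE gives for the same gene, so this window covers the RefSeq start alone. For the other 5 genes the 5′ ends of the gene coordinates in both annotations lay between 23 and 121 bases apart.

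Depth was even, at 17477268 to 17705347 counts per sample at day 7 and 15431912 to 16574144 in adult testis. *Rnf20* (Entrez 109331, GRCm38.p6 chr4:49632005-49656887) was lower in both day 7 knockouts, at 10.3 and 12.6 FPKM (fragments set relative to gene length and library total) against 16.6 and 16.01 in the controls. Its log2 fold change of −0.49 (SE 0.12, edgeR adjusted p = 0.222) did not pass the test. In adult testis it was not lower in the samples labelled knockout, at 9.16, 5.76 and 9.85 against 4.89, 3.32 and 4.09 in the controls (log2 fold change 0.12, SE 0.27, edgeR adjusted p = 0.688). The adult groups are therefore called by their labels throughout. Counts of the whole gene cannot show whether its floxed part was removed. Sample makeup moved with the groups. In adult testis the summed FPKM of 7 spermatid markers was 122330 to 190930 in the controls and 1.83 to 71.7 in the samples labelled knockout, with *Prm1* and *Acrv1* at 0 in at least 1 sample. The sums of 19 Sertoli cell markers were 1273 to 1705 and 3447 to 10061, and those of 7 Leydig cell markers 4019 to 5618 and 63494 to 88130. Macrophage markers, 7 in all, summed to 46.1 to 51.9 and 898 to 1194, and 6 spermatocyte markers to 542 to 563 and 1.81 to 151. The first adult sample labelled knockout stood apart from the other two, with a spermatogonium marker sum of 11.2 against 249 and 410. Its Sertoli cell markers went both ways. *Sox9* (1.2 FPKM), *Fshr* (0.3) and *Cst12* (48.5) lay below all adult controls there, and *Clu* (1857), *Inha* (766) and *Gata4* (53.5) above them. By the edgeR test described below, 8 of the 18 Sertoli cell markers tested in adult testis were higher and 0 lower. Of all genes 40.9% were higher and 40.6% lower by that test. At day 7, 12 of the 18 Sertoli cell markers tested were lower in both knockout samples, as were 26.1% of all genes, and all 7 peritubular myoid cell markers were higher in both, as were 24.8% of all genes, with *Acta2* at 1058 to 1097 FPKM in the controls and 2091 to 2134 in the knockouts. All 7 spermatogonium markers and the 3 spermatocyte markers tested were lower in both, and 3 of 5 Leydig cell markers were higher in both, with marker sums of 156 to 161 FPKM in the controls and 214 to 302 in the knockouts. The first knockout sample again stood apart, with a mean log2 level of the Sertoli cell markers of 3.69 against 4.69 in the second and 4.87 to 5.01 in the controls. The parts that these differences have in the results below were not tested.

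Of the 6 genes, *Rhox5* fell and *Srd5a1* rose in the adult testes labelled knockout, and no member passed the test in day 7 Sertoli cells. *Rhox5* stood near 18 FPKM in the adult controls and below 1.5 in every adult sample labelled knockout. *Shbg* had its widest spread within the knockout groups at both ages, and its direction in adult testis differed from sample to sample. *Srd5a2* was barely detected in any of the 10 samples. The test was edgeR's quasi-likelihood test, run on all genes that reached an FPKM of 0.5 in at least 2 day 7 or 3 adult samples. A gene was called at a Benjamini-Hochberg adjusted p under 0.05, adjusted over all genes tested. In adult testis 5 of the 6 members were tested, 1 of which was called higher and 1 lower, where 40.9% of all 15919 genes tested were called higher and 40.6% lower (81.5% in either direction). At day 7, 4 members were tested and 0 were called, where 0% of all 12880 genes were called (1997 genes, 15.5%, at an unadjusted p under 0.05, and 579 called by DESeq2).

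**Figure D1:**
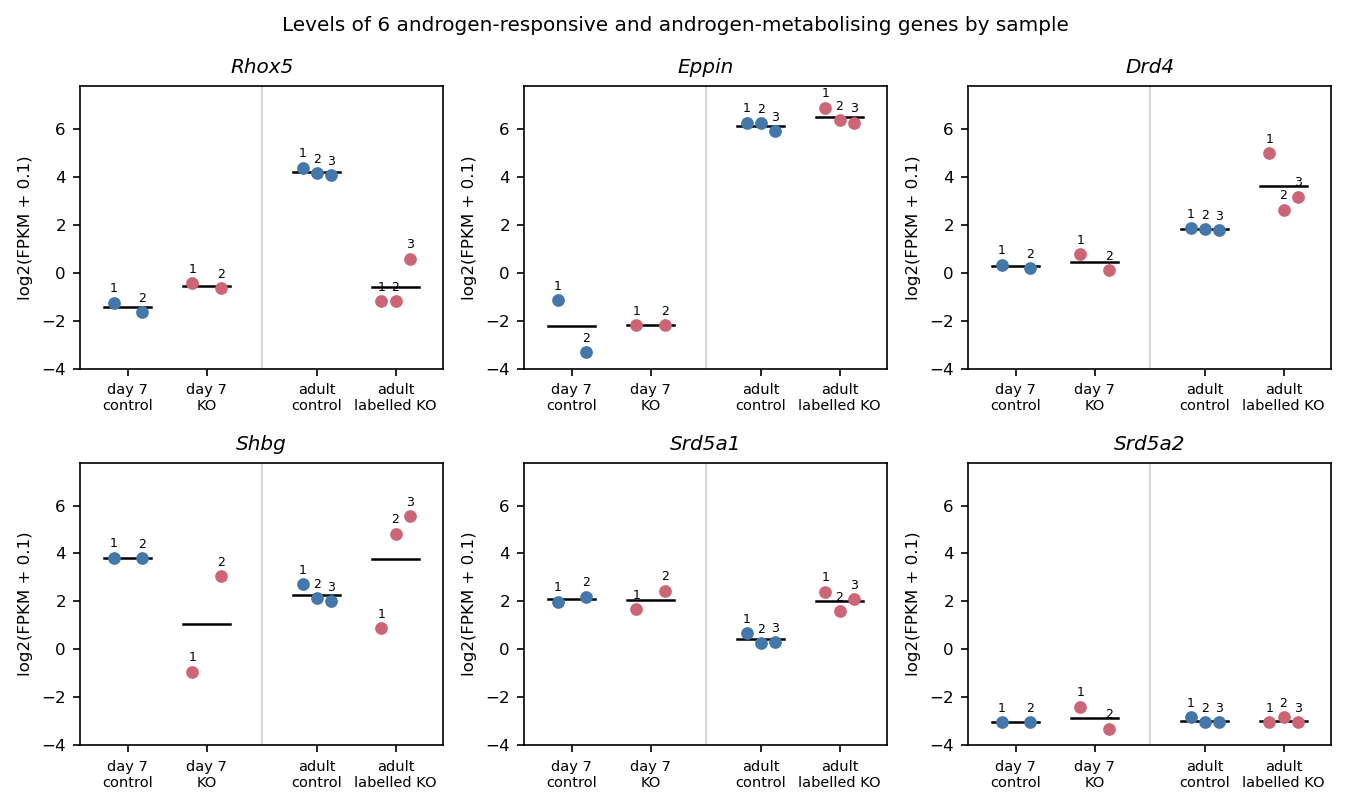
Level of each gene in each sample, as log2(FPKM + 0.1), in day 7 Sertoli cells and adult testis. Points are samples numbered by replicate, blue for controls and red for knockout or labelled knockout (KO), and bars are group means. *Rhox5* is high only in the 3 adult controls, and *Srd5a2* lies at the bottom of the scale in all 10 samples.

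*Rhox5* (Entrez 18617, GRCm38.p6 chrX:37754608-37808878) had FPKM values of 20.8, 17.7 and 16.6 in the adult controls and of 0.34, 0.34 and 1.41 in the adult samples labelled knockout. All 3 samples labelled knockout lay below all 3 controls, as in 43.1% of all genes tested, and the third of them was the highest of its group. These values rest on 189, 159 and 150 counts in the controls and on 3, 3 and 12 counts in the samples labelled knockout. A count of 3 has a 95% Poisson interval of 0.619 to 8.77 and a count of 12 one of 6.20 to 21.0, which cover counting error only. The log2 fold change was −5.57 (SE 0.53, edgeR's quasi-likelihood test, adjusted p = 0.000158), or 47.4-fold lower after TMM scaling. By mean FPKM the level was 18.4 ± 2.14 (SD, n = 3) in the controls and 0.697 ± 0.618 (SD, n = 3) in the samples labelled knockout, 26.4-fold lower. Of all genes tested, 1341 (8.42%) had a lower log2 fold change. The gene reached the minimum FPKM for testing through its controls, and without that filter the log2 fold change was −5.53. *Rhox5* also passed a stricter rule, a change of more than 1 on the log2 scale with an adjusted p under 0.001 from edgeR, as 23.7% of all genes did in the lower direction. It missed the stricter rule with the replicate number as a block (edgeR adjusted p = 0.00305), without any 1 of the controls (0.0014 to 0.00156) and without the second sample labelled knockout (0.00106). Since whole testis was sequenced, fewer cells of a type and less RNA per cell cannot be told apart in any adult value.

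The adult comparison depends on how libraries are scaled, and *Rhox5* was lower under each scaling. TMM factors were 0.710 to 0.761 in the controls and 1.27 to 1.42 in the samples labelled knockout. Over all genes the median log2 fold change was 0.01 with TMM, −0.19 with median-ratio scaling and 0.87 with total counts. *Rhox5* was at −5.77 with median-ratio scaling and at −4.70 with total counts, both below that median. Without the first sample labelled knockout its log2 fold change was −5.15 (SE 0.41, edgeR adjusted p = 3.68e-06). Without the third, which had the most counts of that group, it was −6.42 (SE 0.29, edgeR adjusted p = 0.000261).

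In day 7 Sertoli cells *Rhox5* was near the limit of detection. It was at 0.64 and 0.54 FPKM in the *Amh-Rnf20*-/- samples against 0.32 and 0.22 in the controls. Both knockout samples lay above both controls, as in 24.8% of all genes tested. The values come from 6 and 5 counts in the knockouts against 3 and 2 in the controls, with Poisson intervals that span 1.62 to 13.1 and 0.242 to 8.77 and so overlap, and the gene entered the test only through its knockout samples. Its log2 fold change was 1.14 (SE 0.59, edgeR adjusted p = 0.429) and did not pass the test. Set side by side over tables that were scaled separately, *Rhox5* was highest in adult control testis. The adult samples labelled knockout, the day 7 knockouts and the day 7 controls followed in that order by mean FPKM (0.697, 0.590 and 0.270), and the ranges of the first 2 of these overlapped.

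*Eppin* (Entrez 75526, chr2:164588343-164593571) had the highest level of the 6 genes in adult testis. The controls had 76.7, 75.2 and 60.5 FPKM, and the samples labelled knockout had 119, 83.3 and 76.7. The groups overlapped, since the lowest sample labelled knockout lay just below the highest control. The log2 fold change was −0.46 with TMM scaling (SE 0.24, edgeR adjusted p = 0.117) and 0.39 with total counts (SE 0.21, edgeR adjusted p = 0.118), so that its sign depended on the scaling and it passed under neither. Without the first sample labelled knockout the TMM value was −0.58 (SE 0.15, edgeR adjusted p = 0.0064), in a fit that called 41.1% of all genes lower. At day 7 *Eppin* had 1 count in each *Amh-Rnf20*-/- sample and 3 and 0 counts in the controls, too few to be tested, and a count of 0 allows up to 3 counts as a one-sided 95% limit. *Eppin* was thus at the edge of detection in the day 7 Sertoli cells of either genotype.

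*Drd4* (Entrez 13491, chr7:141291974-141296464) had adult FPKM values of 3.51, 3.42 and 3.30 in the controls, which were nearly the same, and of 31.9, 6.13 and 8.95 in the samples labelled knockout. All 3 samples labelled knockout lay above the controls on the FPKM scale, as in 54.9% of all genes tested, and the first was several times higher than the others. After TMM scaling the groups overlapped, at 5.64, 6.54 and 5.20 CPM (counts relative to the scaled library size) against 32.5, 5.87 and 8.57. It had a log2 fold change of 1.43 (SE 0.67, edgeR adjusted p = 0.0886), which did not pass the test. It passed with total counts, at 2.25 (SE 0.65, edgeR adjusted p = 0.0164), where 54.1% of all genes were called higher. The size rests on 1 library: without the first sample labelled knockout it was 0.45 (SE 0.23, edgeR adjusted p = 0.102). In day 7 Sertoli cells *Drd4* was at 1.60 and 0.97 FPKM in the knockouts against 1.16 and 1.04 in the controls. These groups overlapped, with 1 knockout above and 1 below both controls, and the log2 fold change was 0.18 (SE 0.34, edgeR adjusted p = 0.843).

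*Shbg* (Entrez 20415, chr11:69610282-69618026), which encodes the secreted carrier, was the member with the highest level in the day 7 controls and the second knockout. In the first knockout *Srd5a1*, at 3.08 FPKM, was the highest. *Shbg* was at 14.1 and 13.8 FPKM in the controls but at 0.42 and 8.24 in the *Amh-Rnf20*-/- samples. The controls were close together, both knockout samples lay below them, as in 26.1% of all genes tested, and the first knockout was close to the bottom of the scale. The log2 fold change was −1.56 (SE 1.14, edgeR adjusted p = 0.565). That fit did not pass the test, and leaving out either knockout sample made it pass. Without the first knockout the value was −0.62 (SE 0.13, edgeR adjusted p = 0.0139), and without the second it was −5.24 (SE 0.25, edgeR adjusted p = 1.05e-05). Those fits called 11.7% and 18.8% of all genes lower, so passing there was not particular to *Shbg*. With 1 knockout sample left, that sample is assumed to vary as the controls do.

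In adult testis *Shbg* was at 6.45, 4.25 and 3.89 FPKM in the controls and at 1.75, 28.4 and 46.8 in the samples labelled knockout. The first sample labelled knockout lay below all 3 controls and the other two above all of them. As a group the log2 fold change was 1.35 (SE 0.97, edgeR adjusted p = 0.236) and did not pass the test. Without the first sample labelled knockout it was 2.03 (SE 0.27, edgeR adjusted p = 9.45e-05), in a fit that called 45.3% of all genes higher. That sample also had the lowest Sertoli cell marker level of its group, a mean log2 of 4.004 against 5.78 and 6.15. At both ages, then, the first knockout library had the lowest *Shbg* of all libraries in its table.

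*Srd5a1* (Entrez 78925, chr13:69573449-69611485), the reductase that was detected throughout, had adult FPKM values of 1.5, 1.10 and 1.12 in the controls and of 5.17, 2.91 and 4.19 in the samples labelled knockout. All 3 samples labelled knockout lay above all 3 controls, also after TMM scaling, as in 42.4% of all genes tested. Its log2 fold change was 0.97 (SE 0.34, edgeR adjusted p = 0.0367), or 1.96-fold higher after TMM scaling. By mean FPKM it was 3.30-fold higher, at 4.09 ± 1.13 (SD, n = 3) against 1.24 ± 0.225 (SD, n = 3). The call is close to the threshold. It did not pass with median-ratio scaling (0.78, edgeR adjusted p = 0.0777), with DESeq2 (0.78, adjusted p = 0.0612), without the second control (0.81, edgeR adjusted p = 0.116) or without the third (0.94, edgeR adjusted p = 0.102). With total counts it was 1.81 (SE 0.35, edgeR adjusted p = 0.00292), where the median of all genes was 0.87.

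In day 7 Sertoli cells *Srd5a1* was at 3.08 and 5.35 FPKM in the knockouts against 3.88 and 4.50 in the controls. The first knockout was the lowest and the second the highest of the 4 samples, so the groups overlapped. The log2 fold change was 0.04 (SE 0.33, edgeR adjusted p = 0.965). The other reductase gene, *Srd5a2* (Entrez 94224, chr17:74014891-74047860), had 1 or 2 counts in each of the 6 adult samples, and at day 7 it had 1 in each control against 5 and 0 in the knockouts. These counts are at or near the floor of 3, and no fold change is given.

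**Figure D2:**
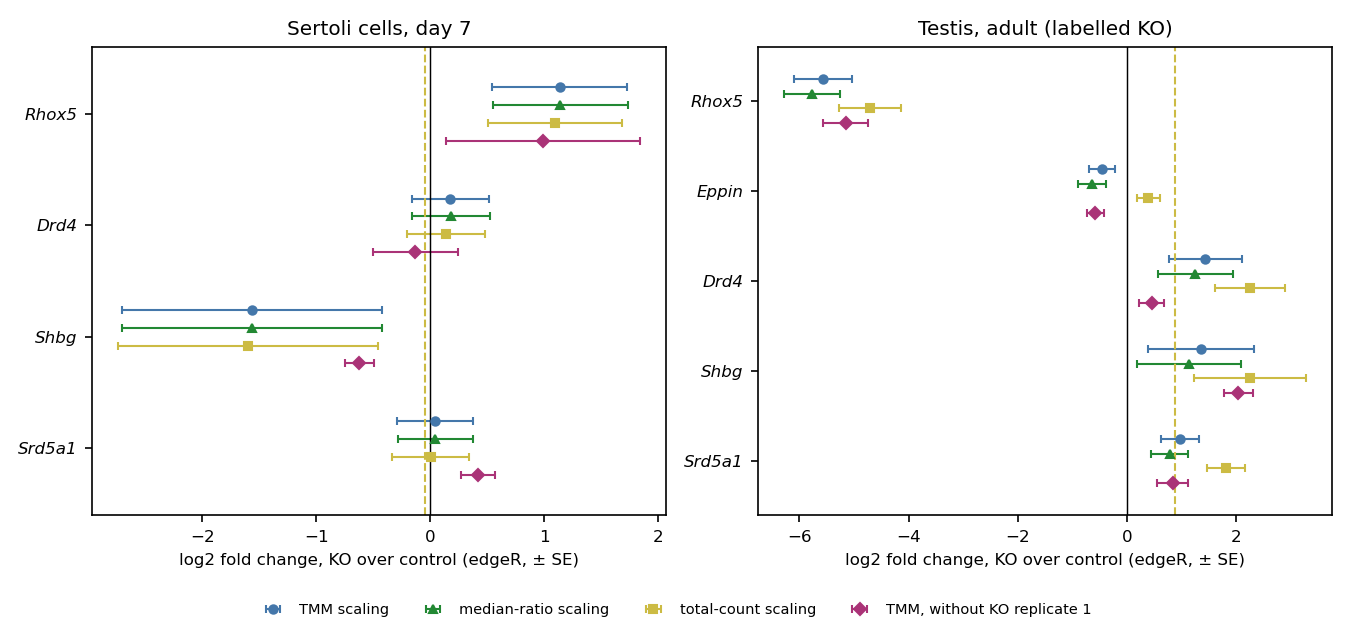
Log2 fold change of each tested gene, knockout or labelled knockout (KO) over control, with its standard error from edgeR, under 3 scalings and without the first KO sample. The dashed line marks the median of all genes with total counts. *Rhox5* lies below 0 in adult testis under each of these settings, and *Eppin* changes side with total counts.

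Because the Sertoli cell markers also differed between the groups, each member was set against the mean log2(FPKM + 0.1) of 19 Sertoli cell markers in the same sample. In the first adult sample labelled knockout that mean combines markers above and markers below the controls, which limits the relative values of that sample. On this relative scale *Rhox5* was at 0.86, 0.94 and 0.79 in the adult controls, above the average marker. It was at −5.19, −6.96 and −5.56 in the samples labelled knockout. All samples labelled knockout lay below the controls here too, as in 46.0% of all genes tested. The difference was −6.77 (exact permutation p = 0.1, two-sided, the lowest that 3 against 3 samples allow). When each sample was left out in turn it lay between −7.13 and −6.24. Set against 7 Leydig cell markers instead, which were all called higher themselves, the differences were −9.42 for *Rhox5*, −4.25 for *Eppin*, −2.83 for *Drd4*, −3.15 for *Shbg* and −3.01 for *Srd5a1*. On that scale all 5 members lay lower without overlap, as did 92.4% of all genes tested, so it sets no member apart.

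Relative to the Sertoli cell markers, the groups of the other adult members overlapped. *Eppin* was at 2.74, 3.02 and 2.65 in the controls and at 2.90, 0.60 and 0.11 in the samples labelled knockout, where the first overlapped with the controls and the other two lay below them (difference −1.60, exact permutation p = 0.3). *Drd4*, *Shbg* and *Srd5a1* differed by −0.18, −0.50 and −0.36, with exact permutation p-values of 1, 0.9 and 0.9. *Drd4* was at −1.67, −1.40 and −1.51 in the controls, with the first sample labelled knockout above them, at 0.998, and the other two below, at −3.14 and −2.98. *Shbg* had controls at −0.81, −1.09 and −1.27, the first sample labelled knockout lowest at −3.12, and the other two at −0.95 and −0.60. For *Srd5a1* the controls were at −2.84, −2.95 and −2.98 and the samples labelled knockout at −1.61, −4.19 and −4.05. Its rise in FPKM was therefore not seen relative to the Sertoli cell markers, where the first sample labelled knockout lay above the controls and the other two below. At day 7 the differences were 1.66 for *Rhox5*, 0.92 for *Drd4*, −2.0 for *Shbg* and 0.71 for *Srd5a1*. The exact permutation p was 0.333 for each, the smallest that 2 against 2 samples can give. Leaving out each sample in turn gave 1.05 to 2.27 for *Rhox5* and 0.08 to 1.76 for *Drd4*. It gave −3.50 to −0.50 for *Shbg* and 0.54 to 0.89 for *Srd5a1*. *Rhox5*, *Drd4* and *Srd5a1* lay higher without overlap, as did 68.2% of all genes on this scale, where the mean of the markers was itself lower in both knockouts. *Shbg* lay lower without overlap, as did 1.88% of all genes.

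**Figure D3:**
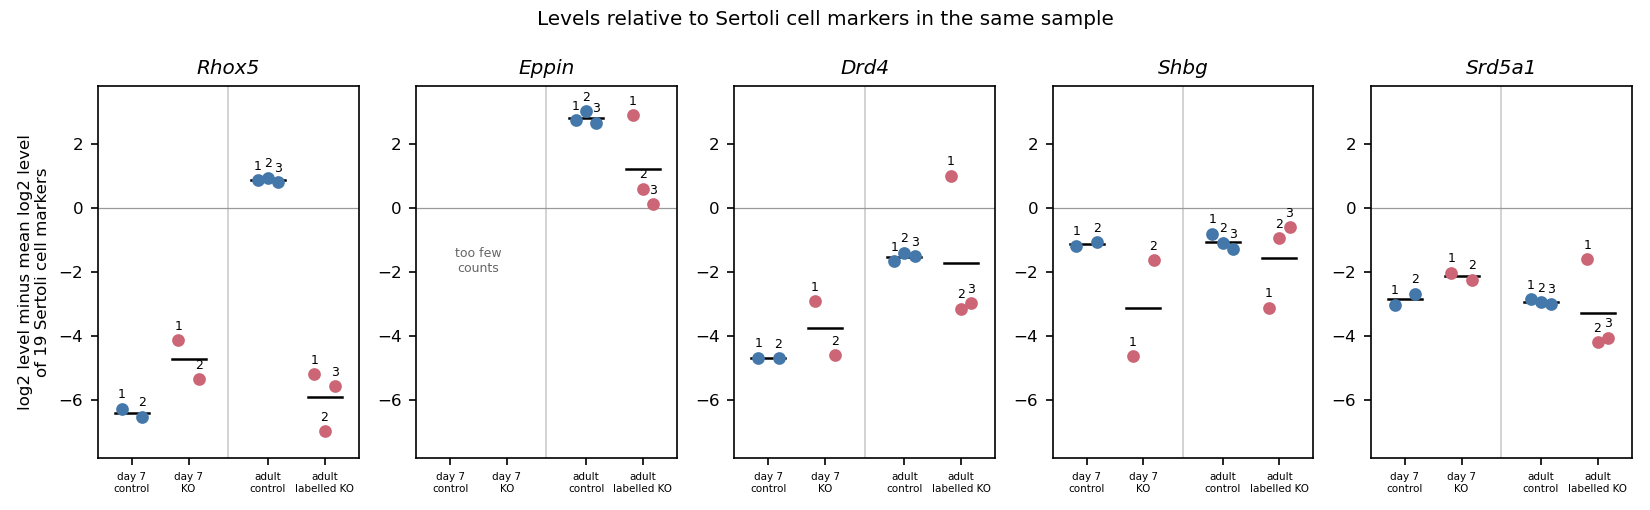
Level of each gene minus the mean of 19 Sertoli cell markers in the same sample, both as log2(FPKM + 0.1), with samples numbered by replicate, bars for group means and KO for knockout or labelled knockout. *Rhox5* is near 0.9 in the adult controls and below −5 in the adult samples labelled knockout, while the other adult members overlap between groups.

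For each member tested in both tables, the 3 genes with the most similar profile over the 10 samples were found among 12378 genes. Likeness was the root mean square difference in log2(FPKM + 0.1), each table centred on its controls, and is a description with no test. The nearest to *Rhox5* were *Col26a1*, a collagen gene (0.36), *Sox5*, a transcription factor (0.41), and *Rundc3a* (0.44), where the median over all genes was 3.36. The genes nearest to *Shbg* were *Gatm*, an enzyme of creatine synthesis (0.39), *Cidea*, a lipid droplet gene (0.41), and *Cldn11*, a tight junction gene of Sertoli cells (0.56), against a median of 2.06. Those 3 genes were lower in both day 7 knockouts, more so in the first, and well above the adult controls in the second and the third adult samples labelled knockout, as *Shbg* was. They were picked for this likeness, so it is no separate result, and *Cldn11* is also in the Sertoli cell marker list. Among the genes nearest to *Drd4* were *Sh2b2* and *Hoxc5* (0.23 and 0.31, median 1.05), and nearest to *Srd5a1* were *Olfr1383*, *Unc45a* and *Dclre1a* (0.13, 0.16 and 0.17, median 0.90).

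Other genes of the pathway were taken from lists and set beside the members. In adult testis the 8 androgen synthesis genes, 5 of which are also in the Leydig cell marker list, were all called higher in the samples labelled knockout, where 40.9% of all genes were, with a median log2 fold change of 3.68 where all genes had 0.01. *Star*, which brings cholesterol into mitochondria, was at 12.2 to 20.5 FPKM in the controls and 394 to 946 in the samples labelled knockout (log2 fold change 4.31, SE 0.48, edgeR adjusted p = 0.000314). *Cyp17a1*, whose enzyme makes androgen precursors, was at 74.2 to 196 and 2233 to 3374 FPKM (3.51, SE 0.46, edgeR adjusted p = 0.000589). *Hsd3b1* and *Hsd3b6* are related genes, so the split of reads between them may be uncertain, which was not tested. At day 7, 6 of these genes were tested and 0 were called, and *Cyp17a1* was at 0 to 0.18 FPKM in all 4 samples.

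Of 7 genes tested for androgen conversion and clearance in adult testis, 4 were called higher and 1 lower, beside 40.9% and 40.6% of all genes. *Srd5a3*, a related reductase gene, was at 1.45 to 2.01 FPKM in the controls and 13.0 to 14.2 in the samples labelled knockout (log2 fold change 2.08, SE 0.19, edgeR adjusted p = 0.000131). *Akr1c14*, whose enzyme acts on dihydrotestosterone, was also called higher (3.11, SE 0.24, edgeR adjusted p = 8.17e-05), and entered the test only through the samples labelled knockout. *Cyp19a1*, which encodes aromatase and turns androgen into estrogen, fell (−6.29, SE 0.49, edgeR adjusted p = 8.45e-05). It was at 2.43 to 4.39 FPKM in the controls and 0.03 to 0.09 in the samples labelled knockout, and entered the test only through the controls. At day 7 *Akr1c14* was at 8.11 and 5.87 FPKM in the knockouts against 1.58 and 2.05 in the controls, without overlap, as in 24.8% of all genes, and did not pass the test (2.0, SE 0.22, edgeR adjusted p = 0.119).

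The 5 other androgen-responsive Sertoli cell genes did not move as 1 group in adult testis, where 1 was called higher and 1 lower, beside 81.5% of all genes called. *Serpina5*, a protease inhibitor gene, was at 37.1 to 42.8 FPKM in the controls and 332 to 1196 in the samples labelled knockout (log2 fold change 3.21, SE 0.57, edgeR adjusted p = 0.0023). *Cldn3*, a tight junction gene, was at 22.3 to 25.2 and 3.62 to 9.64 FPKM (−2.71, SE 0.37, edgeR adjusted p = 0.000746). *Rhox8*, another Sertoli cell gene of the *Rhox* cluster, was at 18.1, 14.9 and 14.4 FPKM in the controls but at 11.9, 28.3 and 31.5 in the samples labelled knockout, which overlapped (−0.28, SE 0.34, edgeR adjusted p = 0.466). With total counts, or without the first sample labelled knockout, 3 of the 5 were called higher and 1 lower. In those fits 54.1% and 45.3% of all genes were called higher, and 30.0% and 41.1% lower.

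The other members of the *Rhox* cluster, *Rhox8* among them, numbered 11 tested in adult testis. Of these 0 were called higher and 6 lower, where 40.9% of all genes were called higher and 40.6% lower, and their median log2 fold change was −3.98. The genes called lower reached the minimum FPKM for testing only through the controls, where they were high. With 11 of 29 listed genes tested, this tally and median do not describe the cluster as a whole. *Rhox11* fell, with 6.35 to 8.56 FPKM in the controls and 0 to 0.35 in the samples labelled knockout (−5.80, SE 0.63, edgeR adjusted p = 0.000277). *Rhox13* was at 2.90 to 4.10 and 0 to 5.89 FPKM and did not pass (−1.09, SE 1.12, edgeR adjusted p = 0.397). The other genes called, *Rhox11-ps2*, *Rhox3a2*, *Rhox3c*, *Rhox3f* and *Rhox3h*, are multicopy genes with near-identical relatives, and how reads were shared among the copies is uncertain. By its symbol *Rhox11-ps2* is a copy of *Rhox11*, so the same limit holds for the *Rhox11* values.

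General androgen- and glucocorticoid-responsive genes gave 4 called higher and 1 lower of 5 tested in adult testis, beside 81.5% of all genes called. Their median log2 fold change was 2.79. *Zbtb16*, among those called higher, is also in the spermatogonium marker list and entered the test only through the samples labelled knockout. *Fkbp5*, a chaperone gene of steroid receptors, was at 5.26 to 6.33 FPKM in the controls and 66.2 to 108 in the samples labelled knockout (2.95, SE 0.28, edgeR adjusted p = 0.000163). *Per1*, a clock gene, fell by 1.47 on the log2 scale (SE 0.16, edgeR adjusted p = 0.000303), although its FPKM ranges, 19.7 to 25.4 and 15.0 to 18.6, lay close together. The 12 chaperones and coregulators were split into 4 called higher and 5 lower, again beside 81.5% of all genes called, with a median of −0.03, and into 6 higher and 3 lower with total counts, where 54.1% of all genes were called higher and 30.0% lower. At day 7, 0 genes of any of these 6 lists were called by edgeR with all samples. Without the first knockout, where 21.4% of all genes were called, edgeR called 3 of 6 androgen synthesis genes and 1 conversion gene higher, 2 of the other androgen-responsive Sertoli cell genes and 1 general responsive gene lower, and 1 coregulator higher and 2 lower. *Tubb3*, an androgen-responsive tubulin gene, was lower in both day 7 knockouts, as were 26.1% of all genes, at 40.4 and 118 FPKM against 164 and 157 in the controls, and did not pass the test (−0.98, SE 0.50, edgeR adjusted p = 0.423).

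**Figure D4:**
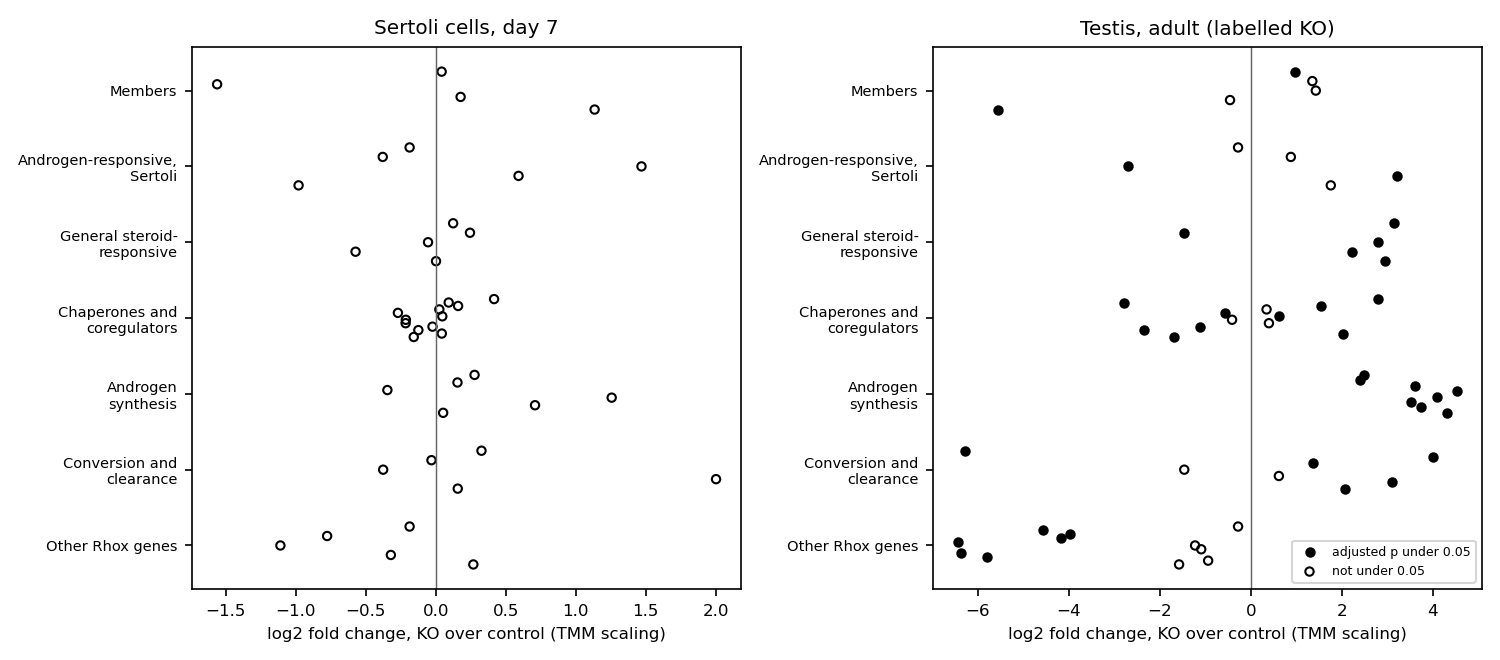
Log2 fold change, knockout or labelled knockout (KO) over control, of each tested gene in the 6 members ("Members") and in 6 lists of related genes, with filled points for genes called by edgeR. No point is filled at day 7, all 8 androgen synthesis genes are filled and above 0 in adult testis, and *Rhox5* is the member farthest below 0.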

How the data were processed

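RNA was sequenced from 4 samples of cultured Sertoli cells at day 7 and 6 of adult testis, and each table was analysed alone. The authors aligned reads with HISAT to the GRCm38.p6 genome, used Bowtie2 for the reference genes, and quantified genes with RSEM. Versions and strand handling are not given in the sources used here, and the adult processing is taken from the same notes. The deposited estimated counts are not normalized, and 10.7% to 13.2% of genes per sample held a count that was not whole. The authors' FPKM values divide fragments by gene length and library total. The deposited TPM values sum to a fixed total per sample and were not tested. The table of adult values has 20 empty columns, which were not used.

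Estimated counts were rounded and fitted with edgeR 4.0.16 (quasi-likelihood test, TMM scaling, Benjamini-Hochberg adjustment) over genes that reached an FPKM of 0.5 in at least 2 (day 7) or 3 (adult) samples, 12880 at day 7 and 15919 in adult testis. The SE was taken as the log2 fold change over the square root of the F statistic. Relative levels used log2(FPKM + 0.1) and exact two-sided permutation tests. Overlap of groups was judged on TMM-scaled counts unless FPKM is named. Alternatives were median-ratio and total-count scaling, no filter, a minimum FPKM of 1, DESeq2 1.42.0, limma 3.58.1 on log2(FPKM + 0.1) and log2(FPKM + 1), a replicate block, the study's thresholds and each sample left out. The values relative to Leydig cell markers and the list counts under other scalings were added after seeing the data. The test was tried on simulated data with known changes. Other tools were Python 3.11.15 (scipy 1.17.1, pandas 2.3.3, matplotlib 3.10.9, numpy 2.4.6) and R 4.3.3.

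The members and lists were chosen with earlier results of these data known. The genes named are *Rnf20*, the 6 members, genes of the lists and the 3 genes nearest to each member. *Acta2*, *Prm1*, *Acrv1*, *Sox9*, *Fshr*, *Cst12*, *Clu*, *Inha* and *Gata4* are named as cell type markers. Gene coordinates and promoter windows are from RefSeq on GRCm38.p6. The androgen receptor gene itself was not analysed here, and 1 gene under the naming rule is not reported here.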

Additional observations from a re-analysis of the deposited data

Results flagged for a closer look

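*Rhox5* had a log2 fold change of 1.14 in day 7 Sertoli cells and of −5.57 in adult testis. It is listed because every knockout sample lay above the controls at day 7 and every sample labelled knockout lay below them in adult testis. The difference between the ages was not tested, the samples differ in tissue as well as age, and the day 7 value rests on 2 to 6 counts per sample. At day 7 the gene passed the filter on low values only through its knockout samples, and the value without that filter was 1.13.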

How the results depend on the processing

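Of 117 alternative values for the members' log2 fold changes, 96 kept their direction and their side of the threshold, 9 reversed, 8 came to pass and 4 ceased to pass, and of 82 relative to Sertoli cell markers 77 kept their direction and 5 reversed. With so few samples none of those 82 could pass the threshold, and the 9 with a replicate block equal the unblocked difference by construction. The cause of these changes was not tested. In adult testis *Rhox5* stayed lower and past the threshold in all 14 alternatives, from −5.81 (DESeq2) to −3.56 (limma on log2(FPKM + 1)), and from −6.42 to −5.15 with each sample left out. Adult *Eppin* reversed to 0.39 with total counts and to 0.38 and 0.37 with limma on log2(FPKM + 0.1) and log2(FPKM + 1), and ranged from −0.58 to −0.24 with samples left out. Adult *Drd4* passed with total counts (2.25) and with limma (1.80 and 1.59), and ranged from 0.45 to 1.82, passing without the second sample labelled knockout. Adult *Shbg* was 2.25 with total counts and 0.80 with the replicate block, passing in neither, and ranged from 0.78 to 2.03 with samples left out. Adult *Srd5a1* did not pass with median-ratio scaling or DESeq2 (0.78 each), and ranged from 0.81 to 1.19. At day 7 *Srd5a1* reversed with limma (−0.0396 and −0.0255) and with the replicate block (−0.0139), and ranged from −0.48 to 0.42. With samples left out, day 7 *Drd4* ranged from −0.13 to 0.43, *Rhox5* from 0.88 to 1.44 and *Shbg* from −5.24 to −0.62. With limma on log2(FPKM + 0.1) and log2(FPKM + 1), day 7 *Rhox5* was 0.91 and 0.32 and *Shbg* −2.75 and −2.04. *Rhox5* has no day 7 value at a minimum FPKM of 1.

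Relative to Sertoli cell markers, leaving out samples gave −7.13 to −6.24 for adult *Rhox5*, −2.45 to −1.06 for *Eppin*, −1.53 to 0.54 for *Drd4*, −0.97 to 0.28 for *Shbg* and −1.20 to 0.10 for *Srd5a1*, and at day 7 1.05 to 2.27 for *Rhox5*, 0.08 to 1.76 for *Drd4*, −3.50 to −0.50 for *Shbg* and 0.54 to 0.89 for *Srd5a1*. Genes called at day 7 numbered 0 with edgeR, 579 with DESeq2, and 0 to 5136 with samples left out (2757 without the first knockout and 5136 without the second). In adult testis 12969 were called, 12018 to 13757 with samples left out, and 7432 passed the study's thresholds. The share of adult calls that were higher was 50.1% with TMM and 64.3% with total counts. Same-numbered samples did not deviate together (correlations of 0.0358 at day 7 and 0.0107, 0.0116 and 0.0247 in adult testis), so the numbers were not taken to pair samples. With the replicate block 0 genes were called at day 7 and 12209 in adult testis, and no member changed sides of an adjusted p of 0.05. Counts of 6 or fewer limit *Rhox5*, *Eppin* and *Srd5a2* at day 7, and 2 or fewer *Srd5a2* in adult testis. Adult *Rhox5* in the samples labelled knockout rests on 3 to 12 counts and day 7 *Drd4* on 22 to 32.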
